A study of Mus musculus with 18 samples.

Results

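GL261 cells that had grown as tumours in immunocompetent mice were compared with the same glioma line kept in culture. GL261 is a mouse glioma line, and the cells used here carry green fluorescent protein (GFP), so that tumour cells can be sorted away from host cells. The genes described are those with a normalized count (reads of a gene divided by a size factor of the library) that reached 10 in 3 or more of the 6 libraries compared. This rule kept 14261 of the 48795 genes in the table, of which 27798 had a read in at least 1 of the 6 libraries. At its edge, the third highest value lay from 10 to under 11 in 171 genes that were kept and from 9 to under 10 in 199 genes that were not.

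The 3 libraries called WT GFP+ below hold GFP+ cells sorted by FACS from collagenase-digested tumours of symptomatic C57BL/6 mice of wild-type (WT) genotype. The 3 cultured libraries hold GL261 GFP cells as they were used for the injections. The labels give them as sorted for GFP, name no mouse strain or genotype, and state collagenase digestion only for tumours. Beside these stand 3 libraries of GFP+ cells sorted in the same way from tumours of Pfp/Rag2-/- mice on the C57BL/6 background, and 3 of the GFP- non-tumour cells of WT tumours. Pfp/Rag2-/- mice have no perforin, with which killer cells open the membrane of their targets, and no Rag2, which T and B cells need to rearrange their receptors, while macrophages and microglia remain. All tumours and cultures come from the single GL261 GFP line. The labels name 6 mice per host but not how they were divided over the libraries, so that p-values speak only of the spread among libraries, which may be technical. The whole series has 18 libraries in 6 groups.

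Interferon-gamma, a cytokine of T cells and NK cells, acts through JAK kinases and promoter sites called GAS. It raises IRF1, the guanylate-binding proteins (Gbp genes), NLRC5, which drives MHC class I genes, and CIITA, which drives MHC class II genes. Type I interferons act mainly through a complex with STAT2 and IRF9 on sites called ISRE, and raise antiviral genes such as Ifit1 and Isg15. Cultured cells are usually kept with nutrients and oxygen in supply, whereas cells of a tumour meet host cells, matrix proteins and regions of low oxygen.

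Read totals, recovered from the normalized counts, were 19797765 to 21141662 in the 6 libraries compared and 19172814 to 21141662 over all 18. Pearson's r across genes on the log2 scale was 0.981 to 0.9879 between WT GFP+ libraries and 0.9945 to 0.9953 between cultured ones. Markers of host cells were present in the sorted tumour cells. In WT GFP+ libraries 1, 2 and 3, the median of 26 macrophage and microglia markers was 2.61%, 0.631% and 1.38% of their mean in GFP- cells. For 24 T cell markers it was 3.00%, 0.277% and 0.543%, for 17 endothelial markers 4.94%, 8.22% and 30.95%, and for 3 oligodendrocyte markers 6.40%, 3.65% and 26.5%. The summed level of the 26 macrophage markers was 9357 to 22163 in WT GFP+ libraries, 713 to 835 in culture and 582555 to 798210 in GFP- cells, and 8 of them, among them Aif1, Adgre1, Itgam and Tyrobp, had no read in any cultured library. WT library 1 stood highest in the immune shares and WT library 3 in the endothelial and oligodendrocyte shares. Pfp/Rag2-/- GFP+ library 1 stood apart in the same way, with 1845, 49.6 and 49.7 normalized counts of the leukocyte gene Ptprc in libraries 1, 2 and 3, where WT GFP+ libraries had 946, 78.9 and 194. In sorted bulk RNA, fewer cells of a type cannot be told apart from less RNA per cell.

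Genes were tested with limma on log2 of the normalized count plus 1 and were called where the Benjamini-Hochberg adjusted p was under 0.05. Of the 14261 genes, 4324 (30.3%) were called higher and 5037 (35.3%) lower in WT GFP+ cells, 65.6% in all. These shares are the reference for the gene lists below. The libraries of the 2 groups did not overlap in 10252 genes (71.9%). The median log2 difference was -0.04. At least 2-fold changes were called in 1826 genes that rose and 1195 that fell, and at least 8-fold changes in 611 and 105. Of the 1826 that rose at least 2-fold, the mean in GFP- cells lay above that of WT GFP+ cells in 1032 and at or below it in 794, and it was over 10 times higher in 462. When the larger of each library's macrophage and T cell shares of the GFP- level was subtracted from every gene, 3634 genes were called higher and 5329 lower. When the largest of the 4 shares was subtracted, 1358 and 4250 were. Because 731 genes passed the level filter through the WT GFP+ libraries alone, and 155 through culture alone, those genes had to differ.

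**Figure D1:**
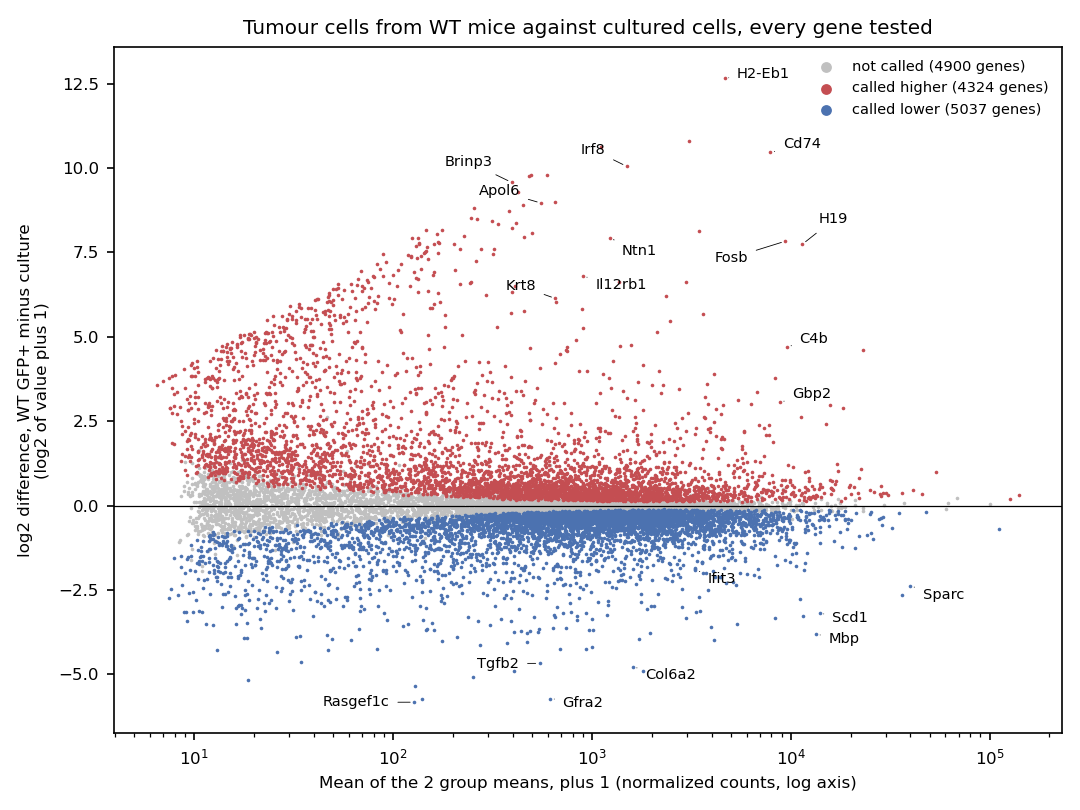
Each point is 1 of the 14261 genes tested, with the mean of the 2 group means (normalized counts plus 1, log axis) on the x axis and the log2 difference of WT GFP+ minus culture on the y axis. Red points are the 4324 genes called higher, blue points the 5037 called lower and grey points the 4900 not called. H2-Eb1 lies highest at 12.66 and Rasgef1c lowest at -5.82.

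Interferon-gamma response genes stood higher in tumour cells than in culture. Of 31 genes in the list 30 were tested, 28 of them were called higher, 1 lower and 1 was not called, with a median log2 difference of 2.47. Ido1, which breaks down tryptophan, was below the level filter. Of the 30, 4 passed the filter through the WT GFP+ libraries alone, and with the immune share subtracted 26 were still called higher and 1 lower. The transcription factor Irf1 had 13655, 13213 and 7099 normalized counts in WT GFP+ libraries 1, 2 and 3 and 1352, 1374 and 1331 in culture. Its promoter is the example shown here of a GAS match, and the promoters of Gbp2, B2m, Ifit1 and Ifit3 are shown for their ISRE matches, because the first 2 of these genes rose and the last 2 fell. The sequences are RefSeq promoters on GRCm38.p6, from 250 bases before the gene's start to 50 after it. Capitals mark GAS (TTCNNNGAA) or ISRE (GAAANNGAAA) matches on either strand.
Irf1 (chr11:53769764-53770063, plus strand): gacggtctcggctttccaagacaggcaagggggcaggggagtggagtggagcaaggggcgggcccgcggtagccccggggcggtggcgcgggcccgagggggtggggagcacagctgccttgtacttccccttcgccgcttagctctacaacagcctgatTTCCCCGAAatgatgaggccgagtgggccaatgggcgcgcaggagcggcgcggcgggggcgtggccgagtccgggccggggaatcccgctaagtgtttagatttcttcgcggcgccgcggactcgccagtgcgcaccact
Gbp2 (chr3:142620413-142620712, plus strand): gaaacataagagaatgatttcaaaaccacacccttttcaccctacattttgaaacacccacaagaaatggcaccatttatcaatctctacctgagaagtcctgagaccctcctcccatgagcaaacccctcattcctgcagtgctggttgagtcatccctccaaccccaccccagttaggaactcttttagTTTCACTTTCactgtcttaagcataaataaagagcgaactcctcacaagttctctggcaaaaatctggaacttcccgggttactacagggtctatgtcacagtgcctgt
B2m (chr2:122147437-122147736, plus strand): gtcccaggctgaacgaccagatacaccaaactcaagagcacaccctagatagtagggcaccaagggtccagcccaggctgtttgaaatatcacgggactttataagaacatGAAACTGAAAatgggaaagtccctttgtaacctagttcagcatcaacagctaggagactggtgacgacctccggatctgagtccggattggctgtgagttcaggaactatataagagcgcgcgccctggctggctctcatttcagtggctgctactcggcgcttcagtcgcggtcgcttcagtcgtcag
Ifit1 (chr19:34640639-34640938, plus strand): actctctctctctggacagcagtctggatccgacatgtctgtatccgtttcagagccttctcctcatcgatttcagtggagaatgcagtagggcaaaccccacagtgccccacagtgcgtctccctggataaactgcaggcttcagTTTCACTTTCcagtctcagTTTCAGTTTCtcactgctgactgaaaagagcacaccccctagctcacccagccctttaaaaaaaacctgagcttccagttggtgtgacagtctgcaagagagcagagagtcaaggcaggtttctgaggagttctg
Ifit3 (chr19:34583279-34583578, plus strand): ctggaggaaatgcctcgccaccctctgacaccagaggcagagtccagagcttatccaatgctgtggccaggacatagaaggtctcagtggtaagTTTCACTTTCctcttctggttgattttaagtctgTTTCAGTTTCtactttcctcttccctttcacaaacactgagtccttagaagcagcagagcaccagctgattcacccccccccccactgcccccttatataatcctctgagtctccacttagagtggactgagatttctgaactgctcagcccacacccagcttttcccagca
The Irf1 window holds the GAS match TTCCCCGAA, 90 bases before the start. Gbp2, Ifit1 and Ifit3 hold the same ISRE match, TTTCACTTTC on the plus strand, and Ifit1 and Ifit3 each hold a further one, TTTCAGTTTC. Of all 27025 genes with a promoter in the table, 9.55% held a GAS match and 3.99% an ISRE match in such a window. Among the 23 genes of the interferon-gamma list with a promoter in it, 10 (43.5%) held a GAS and 12 (52.2%) an ISRE match. Among 20 genes of a list of type I interferon-stimulated genes, 4 (20%) held a GAS and 13 (65%) an ISRE match. The ISRE match was in 10 of the 12 type I genes called lower and in 2 of the 5 called higher that had a promoter in the table. A match is a description of the sequence and not a measured binding site.

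Irf1 rose 8.38-fold (log2 difference 3.00 ± 0.22 SE, limma adjusted p 6.6e-06), with every WT GFP+ library above every cultured one. WT library 3 held the lowest Irf1 level of the 3. Gbp2, a GTPase that acts on membranes of intracellular pathogens, was at 16468, 18426 and 12402 in WT GFP+ cells against 1829.7, 1763 and 1998 in culture (8.46-fold, log2 3.06 ± 0.13, adjusted p 3.4e-07). The WT GFP+ mean of Gbp2 was 181% of that in GFP- cells, so the tumour cells held more of it per library than the host cells. Gbp4 rose from 139.8, 121 and 143 to 7673, 8222 and 5325 (52.6-fold) and Gbp10 from 15.1, 10.4 and 16.2 to 829, 883 and 593 (55.3-fold). The mean of Gbp10 in GFP- cells was 91.9, below each WT GFP+ library.

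The immunity-related GTPases rose from levels that were already high in culture. Igtp, which acts on pathogen vacuoles, was at 19594, 22014 and 16814 against 3483, 2892 and 2981 (6.24-fold, adjusted p 2.5e-07), and Iigp1 at 9523, 11727 and 7896 against 1201, 997 and 1130.5 (8.76-fold). Irgm1 rose 2.35-fold and Irgm2 2.07-fold. Tgtp1 and Tgtp2, near-identical neighbours between which reads can be split, rose 4.95-fold and 4.65-fold. In all 6 of these genes the WT GFP+ mean stood above the GFP- mean, at 656% of it in Tgtp1 and 569% in Irgm2.

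Signal components and brakes of the pathway differed in size. Irf9, a DNA-binding subunit of the complex of type I interferon signalling, rose 1.401-fold. Socs1, which blocks JAK kinases, rose 9.96-fold, from 95.4, 78.2 and 71.5 to 700.1, 1048 and 694. Socs3, a brake of STAT3 signalling, rose 7.51-fold. The receptor chain Ifngr1 was not called at 1123, 794 and 808 against 763, 721 and 760.3 (log2 0.26 ± 0.13, adjusted p 0.0958), although the libraries of the groups did not overlap. The gene of the other chain, Ifngr2, was the member that fell, to 374, 335 and 296 from 441, 427 and 439 (log2 -0.38 ± 0.10, adjusted p 0.00762). The Ifng gene itself did not pass the level filter, at 63.2, 1.900 and 9.21 in WT GFP+ cells, 0 in each cultured library and a mean of 1455 in GFP- cells.

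Ubd and Irf8 of the list, and Apol6, Apol10b and Il12rb1, which are not in it, were near 0 or low in culture. Ubd, Irf8, Apol6 and Apol10b passed the level filter through WT GFP+ libraries alone, so they had to be higher. Ubd, Apol6, Apol10b and Il12rb1 met a naming rule that asks for a WT GFP+ mean at or above the GFP- mean. Ubd, a ubiquitin-like modifier induced by interferon-gamma, had 289, 271 and 216 in WT GFP+ cells against 1, 0 and 0 reads in culture, and a mean of 67.6 in GFP- cells. Apol6, of the apolipoprotein L family, stood at 993, 1189.5 and 1144 in WT GFP+ libraries, against 1, 2 and 1 reads in culture and a GFP- mean of 53.99. Its relative Apol10b showed the same order, with 428, 485 and 445 in WT GFP+ libraries, 1, 0 and 2 reads in culture and a GFP- mean of 32.7. Il12rb1, a chain of the receptors for interleukins 12 and 23 best known on lymphocytes, rose 118-fold, from 17.00, 13.2 and 15.3 to 1669, 1753 and 1933, and its GFP- mean was 1222. Irf8, a transcription factor of macrophages and dendritic cells, had 3167, 3426 and 2374 in WT GFP+ libraries, 0.945, 2.83 and 1.91 in culture and a GFP- mean of 21252. It was highest in WT library 2, the library with the lowest macrophage share, at 14.9%, 16.1% and 11.2% of its GFP- mean in libraries 1, 2 and 3. Irf8 was still called higher with the immune share of the GFP- level subtracted, and was not with the largest of the 4 shares. The part of host cells in the Irf8 level was not tested.

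**Figure D2:**
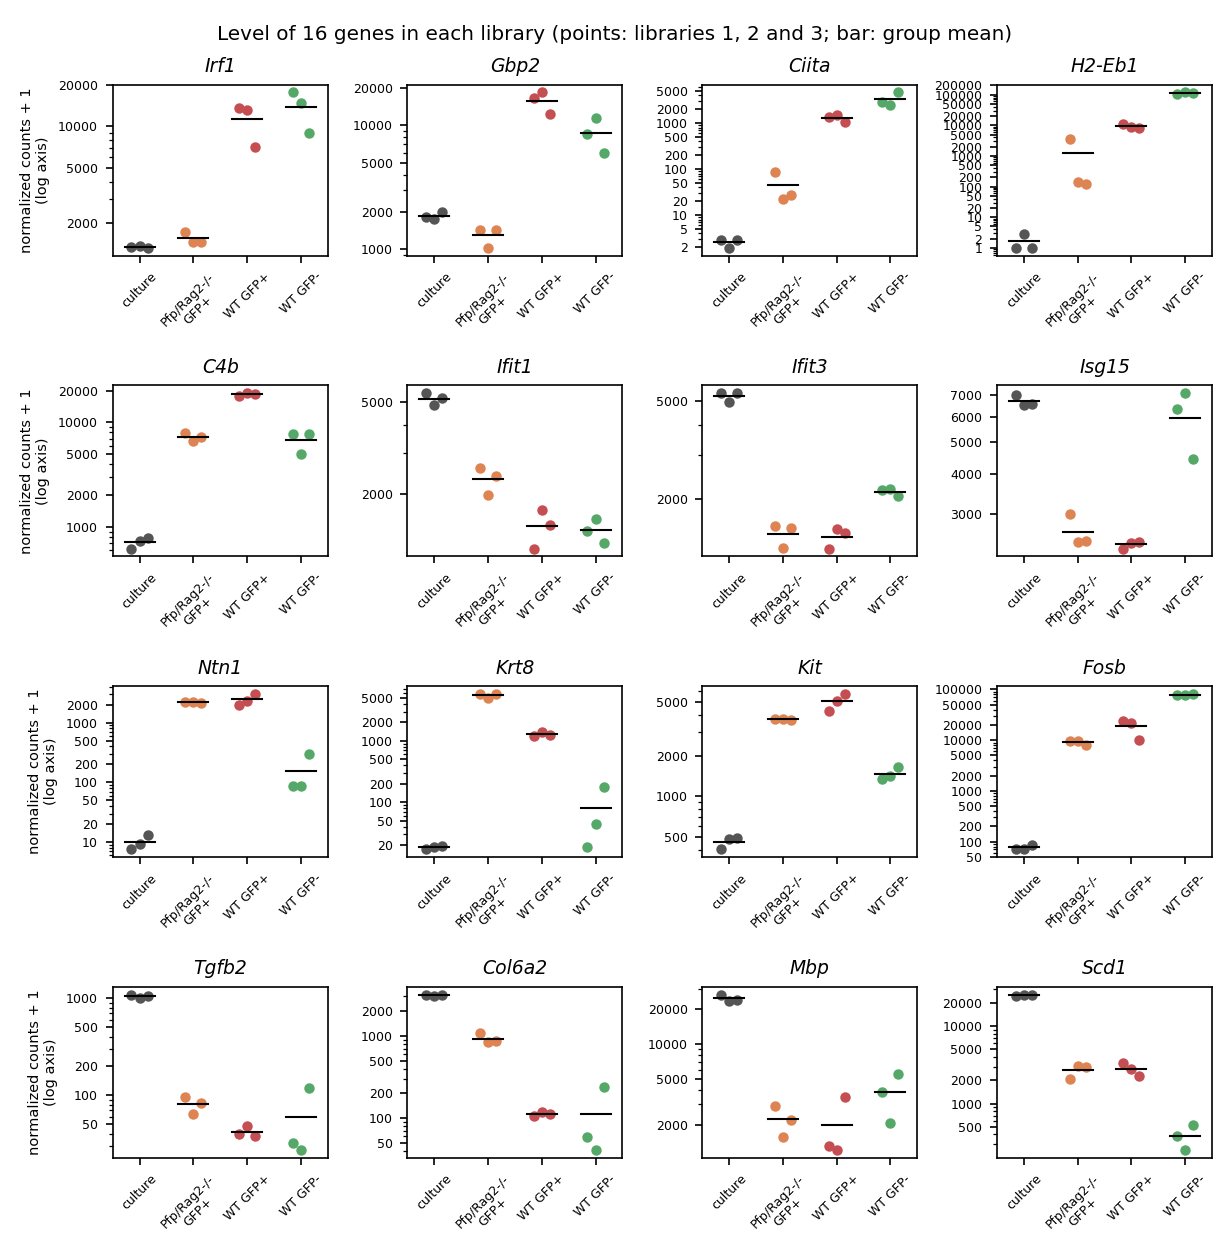
The level of 16 genes (normalized counts plus 1, log axis) is drawn for the 3 libraries of cultured cells, Pfp/Rag2-/- GFP+ cells, WT GFP+ cells and WT GFP- cells, with the group mean as a bar. Irf1, Gbp2, Ciita, H2-Eb1 and C4b stand higher in WT GFP+ than in Pfp/Rag2-/- GFP+ libraries, whereas Ifit3, Isg15, Ntn1 and Scd1 lie close together in both hosts and far from culture.

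Genes induced by type I interferon mostly went the other way. Of 30 tested, 8 were called higher, 17 lower and 5 were not called, with a median of -0.29. Of all genes 30.3% were called higher and 35.3% lower. Ifit1, which binds foreign RNA ends, fell from 5486, 4883 and 5198 in culture to 1152, 1702 and 1459.6 (3.61-fold lower, log2 -1.87 ± 0.12, adjusted p 4.3e-06). Ifit3, its partner, fell from 5384, 4961 and 5360.4 to 1249.8, 1496 and 1446 (3.75-fold) and Ifit3b from 1929.8, 1889 and 1924 to 337, 442 and 424 (4.77-fold). Reads of Ifit3 and Ifit3b, near-identical copies, can be split between them. Isg15, a ubiquitin-like modifier, fell 2.77-fold, from 6991, 6509 and 6582 to 2351, 2450.3 and 2457. Every WT GFP+ library of these 4 genes lay below every cultured one.

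Bst2 (tetherin), Ifi44, the RNA sensor Ddx58 (RIG-I) and Usp18, which removes Isg15, fell 2.08-, 2.17-, 1.97- and 1.82-fold. Mx1, an antiviral GTPase, was not called at 234, 195 and 149 against 200.3, 144 and 175 (adjusted p 0.519). The 8 that rose were Zbp1 (log2 1.28 ± 0.09), Stat2 (1.26 ± 0.11), Parp14 (1.15 ± 0.14), Oasl1 (0.99 ± 0.31), Ifit2 (0.72 ± 0.07), Oas2 (0.66 ± 0.09), Oas3 (0.22 ± 0.08) and Xaf1 (0.20 ± 0.04). Stat2 rose 2.403-fold, from 3741, 3238 and 3210.2 to 8813, 8964 and 6702, while Ifit1 and Ifit3 fell in the same libraries. With the immune share of the GFP- level subtracted, 5 of the 30 were called higher and 17 lower, and the 3 no longer called were Oas2, Oas3 and Oasl1.

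MHC class I presentation rose across its steps. Of 23 genes 20 were called higher and 3 lower, with a median of 2.38, and 19 and 3 were with the immune share subtracted. The heavy chain gene H2-K1 stood at 34725, 32317 and 29499 against 4184, 4333 and 4567 in culture (7.38-fold). H2-D1, another heavy chain, stood at 26551, 25406 and 23694 against 4450.1, 4905 and 4939 (5.29-fold). B2m, the light chain, was abundant in culture at 14150.3, 14409.6 and 14952 and rose 2.12-fold to 33202, 30331 and 28795. H2-Q4 rose 14.9-fold. Class I heavy chains are close copies of each other, so reads can be split between them, and H2-Q6 differed between WT GFP+ libraries at 1069, 93.1 and 141.

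Nlrc5, the transactivator of class I genes, was at 8245, 8461 and 7512 against 1109.9, 985 and 984 (7.86-fold, log2 2.97 ± 0.07, adjusted p 2.2e-08). The immunoproteasome subunits Psmb9, Psmb8 and Psmb10 rose 11.9-, 6.03- and 4.67-fold, and the proteasome activator genes Psme1 and Psme2 2.94- and 1.99-fold. The peptide transporter genes Tap1 and Tap2 rose 5.21- and 4.34-fold, the tapasin gene Tapbp 2.44-fold, and its relative Tapbpl 13.98-fold, from 154, 167 and 168 to 2405, 2524 and 1902. The 3 members that fell were the general chaperones of the endoplasmic reticulum, Calr (log2 -0.39 ± 0.07), Canx (-0.41 ± 0.06) and Pdia3 (-0.16 ± 0.05, not called with TMM or quantile scaling). In Psmb9 and Tap1 the WT GFP+ mean was 97.98% and 95.7% of that in GFP- cells.

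MHC class II presentation moved from near 0 to high levels. All 10 members tested were called higher, with a median of 8.56, but 6 of them passed the filter through the WT GFP+ libraries alone. H2-Oa and H2-Ob, chains of an inhibitor of peptide loading, were below the filter. Ciita had 1329, 1507 and 1059 in WT GFP+ cells against 2, 1 and 2 reads in culture (log2 8.99 ± 0.22). Ciita, H2-Aa and H2-Eb1 were among the members that passed through WT GFP+ libraries alone, so they had to be higher. The invariant chain gene Cd74 was at 18993, 15449.8 and 12940.3 against 12.3, 6.599 and 12.4 (1515-fold). H2-Ab1 stood at 8765, 5909 and 6055 against 23.6, 19.8 and 26.7 (296-fold), and H2-Aa at 7626, 5589 and 5229.7 against 3.78, 1.89 and 1.91. H2-Eb1 stood at 10916, 8981 and 7992 against 0, 2 and 0 reads (log2 12.66 ± 0.38). WT library 1 was the highest of the 3 in Cd74, H2-Ab1 and H2-Eb1, and none of the libraries of the 2 groups overlapped.

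Class II genes are also expressed by macrophages and dendritic cells, and the GFP- means of Cd74, H2-Ab1 and H2-Eb1 were 256435, 155536 and 112200.5. In WT GFP+ libraries 1, 2 and 3 the 12 class II genes stood at a median of 7.39%, 5.72% and 5.05% of the GFP- mean, above the macrophage shares of 2.61%, 0.631% and 1.38%. Ciita stood at 40.1%, 45.5% and 31.9%, and H2-Eb2, a class II beta chain, at 416%, 356% and 475%, with 332, 284 and 379 against 0, 0.943 and 0 in culture. Ctss, the cathepsin that trims the invariant chain, stood at 2.42%, 0.712% and 1.35%, close to the macrophage shares in each library. With the immune share subtracted 9 of the 10 were still called higher, and with the largest of the 4 shares 2 were called higher and 1 lower. The part of host cells in the class II levels was not tested.

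**Figure D3:**
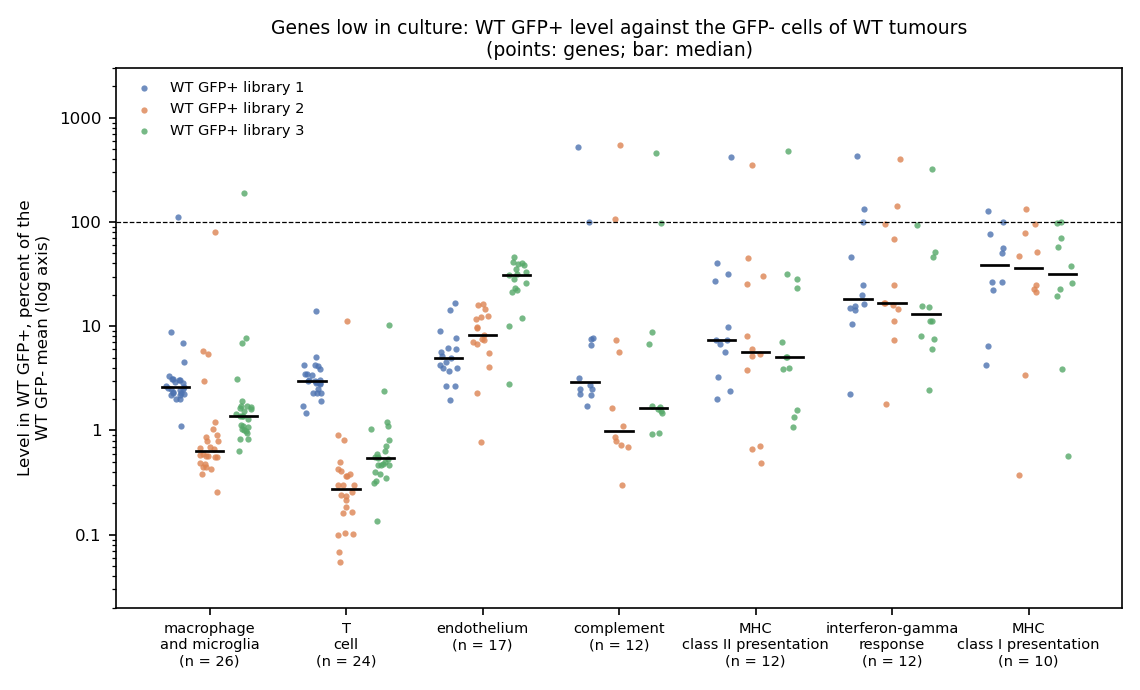
Each point is 1 gene with a mean of at least 50 in WT GFP- cells and a cultured mean under 10% of it. The y axis (log) is its level in WT GFP+ library 1, 2 or 3 in percent of the GFP- mean, black bars are medians, the dashed line marks 100%, and genes without a read in a library are not drawn. Macrophage and T cell genes have medians at or below 3.00%, endothelial genes reach 30.95% in library 3, and interferon-gamma and class I genes have medians from 13.2% to 38.5%.

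Complement genes rose in 14 of the 16 tested and fell in 2, with a median of 4.43, and 8 passed the filter through WT GFP+ libraries alone. With the immune share subtracted 7 were called higher and 2 lower. C4b, a component of the classical pathway, was at 17701, 19064 and 18652 in WT GFP+ cells against 619.7, 735 and 783 in culture (25.9-fold, adjusted p 1e-08). Its GFP- mean was 6813, below each WT GFP+ library. C2, of the same pathway, rose from 63.3, 56.6 and 60.1 to 1019, 1045 and 1037, with a GFP- mean of 141. The C1 protease gene C1s1 rose from 66.1, 63.2 and 84.9 to 735, 816 and 734 (GFP- mean 68.2), and C7, of the membrane attack complex, from 1.89, 3.77 and 0 to 271, 229.9 and 268 (GFP- mean 11.2). All 3 thus had their higher level in the tumour cells. C7 was picked for a WT GFP+ mean at or above the GFP- mean, and passed the filter through WT GFP+ libraries alone. Serping1, the inhibitor of C1, rose 58.1-fold, from 14.2, 16.03 and 16.2 to 919, 962 and 814.

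C1qa, C1qb and C1qc, the chains of C1q, which macrophages and microglia make, behaved differently. C1qb was at 1489, 466 and 1017 in WT GFP+ cells with no read in culture, at least 349-fold higher than a floor of 3 reads per library, and at 2.24%, 0.699% and 1.53% of its GFP- mean of 66581. C3 was at 885, 306 and 258 against 2, 4 and 5 reads, and at 3.17%, 1.09% and 0.923% of its GFP- mean. C1qa and C1qc stood at 2.21%, 0.861% and 1.73% and at 2.48%, 0.801% and 1.69%, in the same order of libraries as C1qb. The part of host cells in the levels of C1q and C3 was not tested. The members that fell were Cd59a, which blocks the membrane attack complex (log2 -1.84 ± 0.27), and Clu, which also binds it (log2 -0.30 ± 0.05).

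Chemokines were called higher in 14 of the 15 tested, 11 of which had passed the filter through WT GFP+ libraries alone, and with the immune share subtracted 3 were called higher and 2 lower. Cxcl10, which attracts T cells, was at 8707, 9150.5 and 3204 against 3369, 3140.0 and 3194 (log2 0.97 ± 0.34, adjusted p 0.0341), and WT library 3 overlapped with culture. The call was lost without any 1 library other than WT library 3. Cxcl9 and Cxcl11, ligands of the same receptor, rose 27.2-fold, to 144, 113 and 155, and 26.00-fold, to 98.6, 104 and 68.2. Ccl8, a chemokine of macrophages, had 521, 125 and 158 with no read in culture (at least 94.4-fold higher) and stood at 4.79%, 1.15% and 1.46% of its GFP- mean.

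Genes of NF-kB feedback and inflammation rose in 14 of 19, 6 of which had passed the filter through WT GFP+ libraries alone, and in 7 (with 1 lower) once the immune share was subtracted. Nfkbia, the inhibitor of NF-kB, was at 8708, 5987 and 1602 against 565, 692 and 708 and Tnfaip3, which edits ubiquitin chains in the same pathway, at 7476, 3793 and 1224 against 109.6, 81.1 and 87.8 (44.9-fold). Both were highest in WT library 1 and lowest in library 3. Il1b, a cytokine of myeloid cells, had 1869, 159 and 259 and no read in culture (at least 268-fold higher), at 2.33%, 0.197% and 0.322% of its GFP- mean. Rgs1, a regulator of G protein signalling in leukocytes and 1 of the 12 highest genes, had 1778, 267 and 506 with no read in culture (at least 299-fold higher), at 2.44%, 0.367% and 0.695% of its GFP- mean. Lcn2, a siderophore-binding protein of inflammation, was at 411, 774 and 100.4 against 2, 6 and 1 reads, with a GFP- mean of 77.5 below each WT GFP+ library.

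Inhibitory ligands and other genes of immune evasion rose in 10 of 22 and fell in 8, where 30.3% and 35.3% of all genes did. Cd274, which encodes PD-L1, was at 3419.9, 3239 and 1327 in WT GFP+ libraries against 105, 83.9 and 85.9 in culture (29.1-fold, adjusted p 4.6e-06), and library 3 was the lowest. Cd47, the ligand that inhibits uptake by macrophages, rose 1.900-fold, from 1829, 1818 and 1882 to 3340.4, 3537 and 3626. Tnfrsf14, a receptor of the BTLA checkpoint, rose 5.96-fold. Cd276, Lgals9, Cd200 and Nt5e fell 1.71-, 1.82-, 3.93- and 2.33-fold, and Tgfb2, a ligand of the TGF-beta receptor, fell 25.9-fold, from 1091, 1015 and 1051 to 38.3, 46.6 and 36.8 (log2 -4.67 ± 0.11, adjusted p 3.2e-08). Arg1, an arginine-degrading enzyme of macrophages, rose to 1672, 375 and 658 from 1, 1 and 0 reads and stood at 3.75%, 0.842% and 1.48% of its GFP- mean.

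Immediate early genes, which cells switch on within minutes of a stimulus, were higher in 19 of 23 and lower in 0, with a median of 2.30. Fosb, a subunit of the AP-1 factor, was at 24319.7, 21723 and 10145 against 71.8, 69.8 and 86.8 (246-fold, log2 7.83 ± 0.29, adjusted p 1.7e-07) and Fos at 51821, 48083 and 33109 against 1699, 1807 and 1860.3 (24.8-fold). Egr1, Jun, Atf3 and Klf2 rose 14.1-, 8.05-, 13.5- and 16.5-fold. WT library 3 held the lowest level of the 3 in Fosb, Fos, Egr1, Jun, Atf3 and Klf2. The GFP- means of Fosb and Fos were 78604 and 75312. Without WT library 3 all 23 were called higher. Collagenase digestion is stated for tumours and not for culture, and its part in these levels was not tested.

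**Figure D4:**
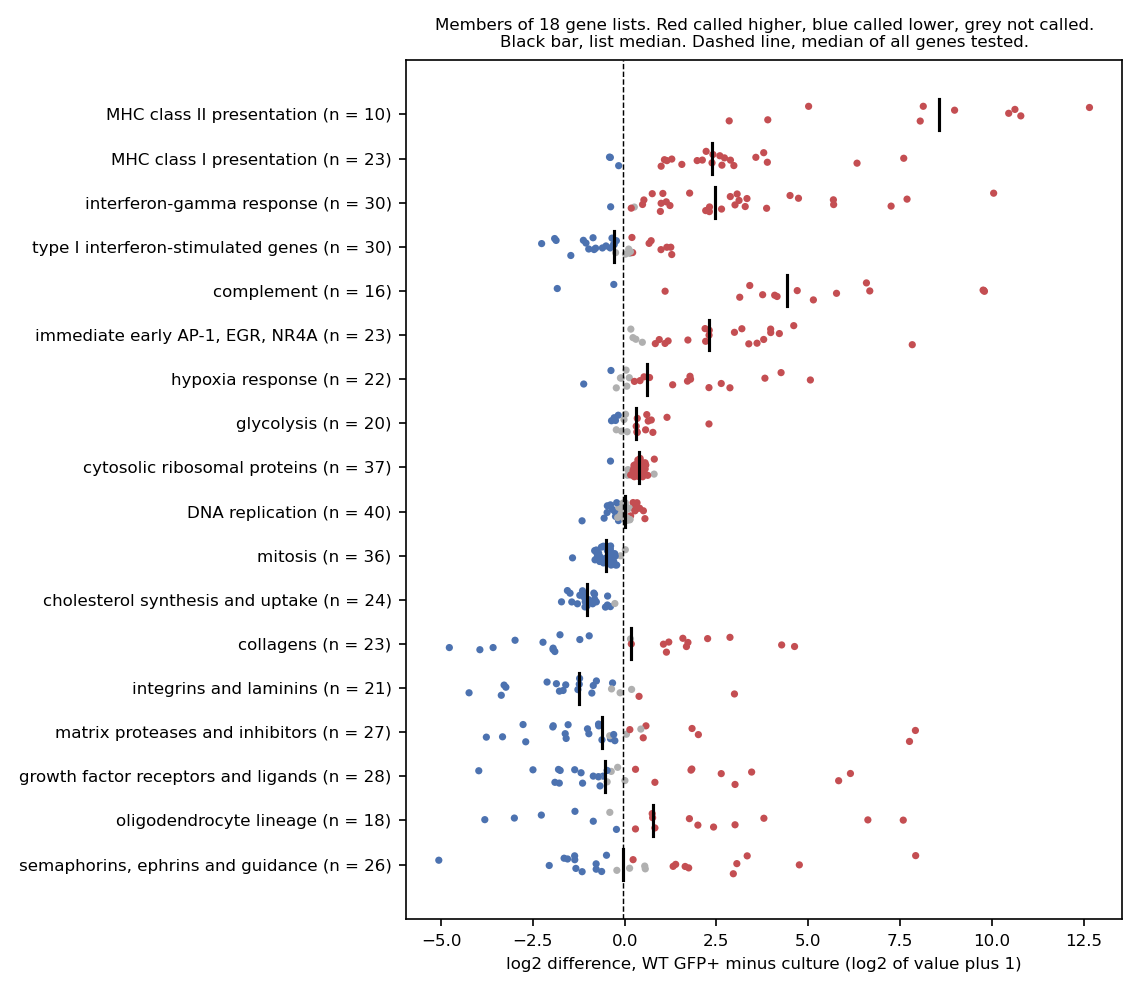
Each row is 1 of 18 gene lists, each point a tested member, and the x axis its log2 difference of WT GFP+ minus culture. Red points were called higher, blue lower and grey not, the black bar is the median of the list and the dashed line that of all genes tested (-0.04). Medians run from 8.56 in MHC class II presentation to -1.24 in integrins and laminins, and collagens have members on both sides.

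Among genes picked for a WT GFP+ mean at or above the GFP- mean, several were high in the tumour cells and low or absent in culture. Their lower level in GFP- cells was thus part of the choice. Brinp3, Sox11 and Myo7b passed the level filter through WT GFP+ libraries alone, so they had to be higher than in culture. Brinp3, a secreted protein of the nervous system, was at 602, 666 and 1098 in WT GFP+ cells with no read in culture (at least 278-fold higher) and a GFP- mean of 44.2. Ntn1, the axon guidance cue netrin 1, was at 1949, 2340.1 and 3049 against 6.61, 8.48 and 12.4 (267-fold, log2 7.93 ± 0.23, adjusted p 6.3e-08), with a GFP- mean of 157. H19, an imprinted long noncoding RNA, rose from 71.8, 85.8 and 129 to 13837, 14488 and 40022 (239-fold), with library 3 far above the other two. Sox11, a transcription factor of immature neurons, was at 203, 236 and 342 against 0, 3 and 0 reads. Myo7b, an unconventional myosin, was at 169, 148 and 212 against 1, 0 and 1 reads. These 5 genes were also present in GFP+ cells of Pfp/Rag2-/- hosts. There Brinp3 was at 1197, 1347 and 1273, Ntn1 at 2233, 2241 and 2122 and H19 at 38022, 47864 and 31163.

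Guidance genes rose in 10 and fell in 12 of 26 tested, where 30.3% of all genes were called higher and 35.3% lower. Beside Ntn1, Sema3e rose 10.4-fold, from 382, 396 and 402 to 3206, 3696 and 5319, and Sema6a 8.29-fold. Ntn4, another netrin, fell 35.5-fold, from 504, 473 and 495 to 15.3, 11.4 and 14.7, so that these 2 netrins moved in opposite directions. The receptor genes Nrp1, Nrp2, Plxnb1, Plxnd1 and Epha2 fell 4.11-, 2.23-, 2.900-, 2.52- and 2.498-fold. Wnt7b, a secreted Wnt, rose 23.2-fold, from 58.6, 53.7 and 59.1 to 1112, 1452 and 1416, and was the member that rose among 9 tested genes of the Wnt pathway, of which 5 fell. Among 15 Notch pathway genes 5 rose and 5 fell, which is near the shares of all genes. The ligand gene Dll1 rose 20.1-fold (to 492, 383 and 670.4) and Dll3 3.52-fold, while the ligand gene Jag1 and the receptor gene Notch2 fell 2.18- and 1.75-fold.

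Keratin 8 (Krt8), an intermediate filament of simple epithelia, was at 1213, 1411 and 1251 in WT GFP+ cells against 16.1, 17.9 and 18.1 in culture (74.4-fold, log2 6.14 ± 0.12, adjusted p 1e-08). In GFP+ cells of Pfp/Rag2-/- hosts it was at 5779.6, 5010.4 and 5840.1, and its mean in GFP- cells was 78.1. The hosts differed here by -2.10 ± 0.08 on the log2 scale (adjusted p 3.6e-05), with WT between culture and Pfp/Rag2-/-. Krt18, its usual partner, had 32, 20 and 17 reads in WT GFP+ cells and 1 read in each cultured library, a ratio of 22.98 with a counting interval from 7.54 to 114. Vim, Nes and Synm, filaments of glia and progenitors, fell 1.598-, 2.65- and 12.1-fold, and Prph, known from peripheral neurons, rose 1.77-fold.

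Integrin and laminin genes fell in 16 of 21 and rose in 2, where 35.3% and 30.3% of all genes did, with a median of -1.24. The integrin genes Itgb3, Itga2, Itga8, Itga6 and Itgb1 fell 16.8-, 9.79-, 9.44-, 4.32- and 1.86-fold. Itgb3, a chain of the vitronectin receptor, went from 1254, 1274 and 1381 to 134, 38.95 and 59.9, with library 1 the highest of the 3. The laminin genes Lama5, Lamb1, Lamc1 and Lama4 fell 10.3-, 3.18-, 3.04- and 2.34-fold. The 2 that rose were Itga9, at 142, 54.2 and 127 with a GFP- mean of 4559.9, and Itgb4, at 667, 755 and 554 with a GFP- mean of 72.9.

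Collagen genes split, with 11 called higher, 11 lower and 1 not called of 23 tested. Of all genes 30.3% were called higher and 35.3% lower. Col6a2 fell 27.6-fold, from 3092, 3032 and 3163 to 105, 119 and 112 (log2 -4.78 ± 0.07, adjusted p 9.5e-09), and Col6a1, the other short chain of collagen VI, 11.9-fold. Col5a1, Col15a1 and Col1a1 fell 15.4-, 7.94- and 4.62-fold. Col9a1 and Col9a3, chains of the cartilage collagen IX, rose 4.81- and 3.01-fold, while Col2a1, the main cartilage collagen, fell 2.296-fold from 23675, 25399 and 26588 to 11769, 12883 and 8304. Col3a1 and Col18a1 rose 3.22- and 2.21-fold.

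Col4a1, a basement membrane chain that vessels make, was at 112, 208 and 1008 against 13.2, 15.1 and 13.4 in culture, and its partner Col4a2 at 85.2, 163 and 637 against 7.56, 9.43 and 5.72. Their order over the 3 libraries, with library 3 highest, is that of the endothelial share of 4.94%, 8.22% and 30.95%. Endothelial markers were called higher in 10 of 13 tested and lower in 2, and 6 of the 13 had passed the filter through WT GFP+ libraries alone. With the immune share subtracted 6 were called higher and 2 lower. The summed level of all 22 endothelial markers was nevertheless lower in WT GFP+ libraries, at 2529 to 4069, than in culture, at 4437 to 4584. Cldn5, a tight junction gene of brain endothelium, was at 24.9, 51.3 and 251 with no read in culture. The part of vessel cells in the collagen IV levels was not tested.

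Other matrix genes fell in 14 and rose in 11 of 28, where 35.3% and 30.3% of all genes did. Sparc, which binds collagen, fell from 66489, 66590.0 and 67419 to 13548, 13956 and 11165 (5.18-fold, adjusted p 1.4e-07). Fbn2 and Fn1, of microfibrils and fibronectin, fell 3.39- and 1.42-fold. Cspg5, Vcan, Ptprz1 and Tnr, proteoglycans and glycoproteins of brain matrix, rose 17.9-, 4.45-, 4.98- and 9.52-fold. Cspg5 went from 150.2, 185 and 235 to 3174, 3423 and 3615, with a GFP- mean of 231.

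Matrix proteases and their inhibitors fell in 17 of 27 and rose in 7, where 35.3% and 30.3% of all genes did. Mmp2, a gelatinase, fell 6.76-fold, from 18675, 19474 and 19730.3 to 2866, 3295 and 2399.8, and its inhibitors Timp2 and Timp3 6.38- and 9.78-fold. Adam12, a sheddase, fell 13.1-fold. Mmp12, the elastase of macrophages, was at 419.5, 139 and 240.4 with no read in culture (at least 93.7-fold higher), at 4.06%, 1.34% and 2.33% of its GFP- mean. Mmp13, a collagenase, was at 492, 113 and 349 against 0, 1 and 0 reads, at 3.25%, 0.746% and 2.303%. Both were highest in library 1 and lowest in library 2, the order of the macrophage shares. The part of macrophages in the Mmp12 and Mmp13 levels was not tested.

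Growth factor receptors and ligands fell in 14 and rose in 9 of 28, where 35.3% and 30.3% of all genes did. Kit, the stem cell factor receptor, rose 11.1-fold, from 402, 476 and 490.3 to 4297, 5089.8 and 5739 (adjusted p 1.1e-07), while its ligand gene Kitl fell 5.62-fold, from 6925, 6241 and 6483 to 1145, 1341 and 1009. The groups did not overlap in either gene. Fgfr3, a receptor of fibroblast growth factors, fell 14.9-fold, from 8288, 7418 and 7428 to 587, 672 and 296, and Erbb2 and Pdgfra 2.55- and 1.75-fold. Igf2 and Met rose 3.55- and 1.77-fold. Among 17 genes of the TGF-beta and BMP pathway 6 rose and 9 fell. The inhibitor gene Smad7 rose 3.29-fold and Bmp2 6.22-fold, and the targets Id1 and Id3 fell 2.51- and 2.46-fold.

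Oligodendrocyte lineage genes rose in 11 and fell in 6 of 18, where 30.3% and 35.3% of all genes did. Mbp, a main protein of myelin, was high in culture at 26772, 23647 and 24008 and fell 12.4-fold to 1310.1, 1207 and 3479. Cldn11, also of myelin, fell 7.82-fold. Gpr17, a receptor of oligodendrocyte precursors before myelination, rose 113-fold, from 26.4, 16.03 and 29.6 to 1875, 1534 and 4765, with a GFP- mean of 199.5. Myrf, Olig1 and Olig2, transcription factors of the lineage, rose 4.01-, 1.71- and 1.71-fold. Olig1 and Olig2 were not called with all 18 libraries in 1 fit. Mobp, also of myelin, was at 115, 39.9 and 1501 with no read in culture. Library 3, the one with an oligodendrocyte share of 26.5%, was highest in Mobp, Mbp and Gpr17, and the part of host oligodendrocytes in these levels was not tested.

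Among 20 transcription factors of neural progenitors 9 rose and 9 fell, where 30.3% and 35.3% of all genes did. Beside Sox11, Pou3f2, Pou3f3 and Nkx2-2 rose 1.63-, 1.55- and 1.61-fold. With all 18 libraries in 1 fit 3 were called higher, and Pou3f2, Pou3f3 and Nkx2-2 were not among them. Sox4, Nfia and Dlx1 fell 1.93-, 1.85- and 2.56-fold. Sox2, a stem cell factor, was not called at 5692, 5812 and 7053 against 6259, 6434 and 6533 (log2 -0.06 ± 0.08, adjusted p 0.543).

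Genes of mitosis were lower in 34 of 36 and higher in 0, by small amounts, with a median of -0.51. Of all genes 35.3% were called lower and 30.3% higher. Anln, needed for the contractile ring, had the largest change in the list, from 14875, 14616 and 14689 to 5851, 5617 and 5061 (2.67-fold, adjusted p 3.2e-07). Plk1, a mitotic kinase, fell from 2890.5, 2876 and 2817 to 1612, 1702 and 1754, and Ccnb2, Kif20a and Cdk1 fell 1.76-, 1.75- and 1.55-fold. Mki67, a proliferation marker, went from 9888, 10054 and 9466 to 7677, 6998 and 7722 (1.31-fold). Of 40 DNA replication genes 10 were called higher, 10 lower and 20 not, where 30.3% of all genes were higher and 35.3% lower. Cdt1 and Rfc3 rose 1.43- and 1.47-fold, Ccne1 and Pola1 fell 2.23- and 1.47-fold, and Mcm6 had 4489, 4375 and 4583 against 4464, 4396 and 4368. With all 18 libraries in 1 fit, which takes in the spread of the other groups, 21 of the 36 mitosis genes were called lower.

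Ribosomal protein genes rose in 33 of 37 and fell in 1, with a median of 0.38. Rps20 had the highest fold among those called, at 1.75, from 15158, 16466 and 16523 to 28843, 28839.7 and 26553 (adjusted p 6.5e-06). Rps2 was the member that fell, from 32648, 32730.3 and 29065 to 21836, 25373 and 25087. With the largest of the 4 shares subtracted 2 were called higher and 1 lower.

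Lipid synthesis was lower. Of 24 genes of cholesterol synthesis and uptake 23 were called lower and 0 higher, with a median of -1.04. Stard4, a cholesterol carrier, fell 3.24-fold, from 2039, 2209 and 2381 to 838, 508 and 699.9 (adjusted p 2.7e-05). The fatty acid desaturase gene Scd1 fell 8.998-fold, from 24729, 25084 and 25587 to 3322, 2817 and 2240.5. Scd2, its close relative, fell 6.27-fold, from 59550.3, 63890.2 and 65149 to 11768, 8729 and 9572. Fasn and Acaca, which build fatty acids, fell 2.38- and 2.49-fold. In GFP- cells Scd1 had a mean of 386, below each WT GFP+ library.

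Genes induced by low oxygen rose in 14 of 22 and fell in 2, where 30.3% and 35.3% of all genes did. Car9, a carbonic anhydrase of hypoxic tumour cells, was at 689, 736 and 761 against 43.5, 48.1 and 62.01 (14.2-fold, adjusted p 1.7e-07), with a GFP- mean of 170.1. Vegfa, the main signal for vessel growth, rose 6.195-fold, from 952, 1005 and 1085 to 6069.9, 6066 and 6707, and Kdm3a, Ero1l, Bnip3 and Ankrd37 3.29-, 3.43-, 3.44- and 7.44-fold. The 3 WT GFP+ libraries lay close together in Vegfa and Car9, apart from culture. The 2 that fell were Ddit4, an inhibitor of mTORC1 signalling, from 11349.5, 15550.2 and 16106 to 6328, 6689 and 6593, and Mxi1 (log2 -0.37 ± 0.09).

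Glycolysis genes rose in 11 and fell in 4 of 20, where 30.3% and 35.3% of all genes did. Slc2a1, the glucose transporter GLUT1, rose 4.903-fold, from 2244, 2459 and 2738 to 11804, 11646 and 13032, and Pfkl, Gpi1 and Aldoa 2.23-, 1.702- and 1.65-fold. Hk1, Pfkm, Pfkp and Eno1 fell by less than 1.5-fold, with log2 differences of -0.36, -0.29, -0.18 and -0.25. Genes of the ATF4 response to amino acid shortage rose in 9 and fell in 12 of 25, where 30.3% and 35.3% of all genes did. Among them the serine synthesis genes Phgdh, Psat1 and Psph fell 1.43-, 1.35- and 1.41-fold, and Trib3 and Nupr1 rose 1.98- and 2.24-fold.

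Subtracting the largest of the 4 host-cell shares, which takes 30.95% of the GFP- level from every gene of WT library 3, lowered the counts of raised genes more than those of lowered genes. Then 16 of 30 interferon-gamma genes, 13 of 23 class I genes, 5 of 16 complement genes, 7 of 22 hypoxia genes, 3 of 20 glycolysis genes and 3 of 23 immediate early genes were called higher. The genes called lower numbered 33 of 36 in mitosis, 17 of 24 in cholesterol synthesis, 16 of 21 in integrins and laminins, and 15 of 30 among type I interferon-stimulated genes, where none was called higher. The 26 macrophage and microglia markers were all called higher as deposited, 19 of them having passed the filter through WT GFP+ libraries alone, and 4 were higher and 2 lower with the immune share subtracted. Of 24 T cell markers 3 passed the filter, and these were called higher. Members that passed the filter through WT GFP+ libraries alone also numbered 4 of 22 in immune evasion, 3 each in growth factor, neural progenitor and oligodendrocyte genes, and 2 each in hypoxia, collagen, protease and guidance genes.

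The 12 genes with the lowest log2 differences under the rule used for naming, each with a cultured mean of at least 100, were Rasgef1c, Wfdc1, Gfra2, Efhd1, Ntn4, Crabp1, Papln, Col6a2, Tgfb2, Sod3, Mef2c and Itgb3. In culture Wfdc1, Efhd1 and Sod3 stood at 245, 304 and 275, at 216, 273 and 262 and at 158, 169 and 140.2, and their highest WT GFP+ libraries lay far below that (log2 -5.73, -5.35 and -4.25). Rasgef1c, which carries a guanine exchange domain, fell from 237, 227 and 285 to 1.92, 1.900 and 9.21 (log2 -5.82 ± 0.46). Rasgef1c passed the level filter through culture alone, so it had to be lower. The same holds for any of the 12 genes whose WT GFP+ libraries all lay under 10. The WT GFP+ levels of Wfdc1, Efhd1 and Sod3 are not given here. Gfra2, a receptor of the GDNF family, fell 53.6-fold, from 1208, 1235 and 1185 to 16.3, 25.6 and 25.8, and Papln, a secreted matrix protein, 29.3-fold, from 3354, 3560.5 and 3617 to 93.8, 123 and 143. Crabp1, which binds retinoic acid inside the cell, went from 724, 799 and 817 to 21.1, 38.00 and 19.3. Mef2c, a transcription factor of muscle, neurons and microglia, fell 18.7-fold although its GFP- mean was 1278. Of the 1195 genes that fell at least 2-fold, 699 had a GFP- mean at or below that of WT GFP+ cells. In GFP+ cells of Pfp/Rag2-/- hosts Gfra2 was at 35.6, 36.7 and 41.5, Papln at 129, 209 and 147 and Col6a2 at 1075, 828 and 855.

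The cultured libraries also serve as the reference for GFP+ cells of Pfp/Rag2-/- hosts, so differences between hosts were taken from a direct fit of WT GFP+ against Pfp/Rag2-/- GFP+ libraries. There 15.3% of 14807 genes were called higher and 15% lower in WT, 30.4% in all. Of the 30 interferon-gamma genes 24 were called higher and 0 lower (27 and 2 with the library number as a block), and of the 23 class I genes 21 and 0. In Irgm2 and Gbp5 of the interferon-gamma list and Psme2 of the class I list, taken as 3 examples after their values were seen, the Pfp/Rag2-/- libraries lay below culture while the WT mean lay above it. Irgm2 was at 2096, 1651 and 2058 where culture had 4036, 3522 and 3634 (host difference 1.99 ± 0.13 on the log2 scale), Gbp5 at 636, 484 and 629 where culture had 854, 843 and 947 (2.92 ± 0.20), and Psme2 at 3234, 3036 and 2893 where culture had 4313, 4253 and 4172 (1.47 ± 0.06).

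For Isg15, Ifit3, Ntn1, Sox11, Gfra2 and Papln the host difference was not called (log2 -0.12, -0.04, 0.13, 0.24, -0.75 and -0.42), which does not show that the hosts were alike. Oas2, which was 1.59-fold higher in WT GFP+ cells than in culture, was at 2625, 1814 and 2489.5 in Pfp/Rag2-/- cells (host difference -2.48 ± 0.14, adjusted p 9.7e-05). Collagens were lower in WT than in Pfp/Rag2-/- hosts in 16 of 23 and higher in 1, and oligodendrocyte lineage genes lower in 11 of 18 and higher in 0. Of pericyte and fibroblast markers 7 of 11 tested were lower in WT. The summed level of all 17 was 27274 to 31365 in Pfp/Rag2-/- and 13677 to 15968 in WT GFP+ libraries. It was 10641 to 11063 in culture and 10488.5 to 15885 in GFP- cells, so this sum does not measure a host-cell share. In Pfp/Rag2-/- libraries 1, 2 and 3 the endothelial share was 69.5%, 28.5% and 27.2% and the oligodendrocyte share 44.6%, 30.1% and 25.4%. The part of host cells in the host differences was not tested. Mitosis genes were higher in WT in 23 of 36. For class II genes Pfp/Rag2-/- library 1 stood apart, with 6204, 399.5 and 329.7 of Cd74 in the 3 libraries, and 7 of 10 were called higher in WT. Without that library 1772 genes were called higher and 1517 lower in WT, and 27 of the 30 interferon-gamma genes, 21 of the 23 class I genes and all 10 class II genes tested were called higher.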

How the data were processed

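Bulk RNA-seq of sorted or cultured GL261 GFP cells was analysed from 1 deposited table. Its values are a signal, normalized counts that the authors made by dividing reads by a size factor per library. STAR 2.5.2b, DESeq2 and GRCm38 are named per the submitters' processing notes. Which program counted reads, and on which annotation, is not given in the sources used here. Dividing by the step between low values gave whole reads for 100% of values within 0.05 reads, so totals could be recovered, and intervals and floors (3 reads per library) cover counting error only. Levels are not divided by gene length and are not comparable between genes.

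log2(value + 1) of genes at 10 or more in at least 3 libraries was fitted with limma 3.58.1 (trended empirical Bayes, R 4.3.3) on the 2 groups compared, with Benjamini-Hochberg adjustment at 0.05. The fit was tested on simulated data. Folds in the text are ratios of group means. Alternatives were a pseudocount of 10, no filter, a filter at 50, TMM and quantile scaling, robust variances, a fit of all 18 libraries, a replicate block, DESeq2 1.42.0 and the quasi-likelihood test of edgeR 4.0.16 on recovered reads, subtraction of host-cell shares and leaving out each library. edgeR called 4738 genes higher and 4475 lower. A repeat that kept the genes tested was chosen after seeing the data.

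A host-cell share is the median, over markers that reach a mean of 50 in GFP- cells and stay under 10% of it in culture, of the level in percent of the GFP- mean. The immune share is that of macrophages or of T cells, whichever is larger. It was multiplied by the GFP- mean of each gene and subtracted, with a floor of 0.

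The members and the gene lists were chosen with earlier results of these data known. Named genes are the 12 highest and 12 lowest of those called without overlap that have a mean of 100 or more in their higher group, the 12 highest at or above the GFP- mean, up to 3 highest and 3 lowest per list, and list members given with a value. Some genes that this rule names are not reported here.

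Library numbers were checked for pairing by the correlation of deviations from the group means. Between hosts it was 0.616, 0.483 and 0.102 for numbers 1, 2 and 3, and between WT GFP+ and culture -0.022, -0.00689 and 0.0168. Host differences and their SE and p come from the fit without a block, and the block is an alternative. With 0.1 as the threshold, only the hosts gave a sign of pairing. WT library 2 also correlated with Pfp/Rag2-/- library 3 (0.443), so this is a hint from the data, and the labels do not state a pairing. Promoters are RefSeq sequences of the table on GRCm38.p6.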

Additional observations from a re-analysis of the deposited data

Results flagged for a closer look

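The genes below were singled out because their change against culture differed between hosts in the direct fit of WT GFP+ against Pfp/Rag2-/- GFP+ libraries (limma with Benjamini-Hochberg adjustment), where 15.3% of all genes were called higher in WT and 15% lower. The values are log2 differences of WT minus Pfp/Rag2-/- with their SE.

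In 11 named genes every WT GFP+ library lay above every cultured one and every Pfp/Rag2-/- GFP+ library below every cultured one. They were Gbp10 (7.36 ± 0.59), Gbp2 (3.60 ± 0.18), Gbp5 (2.92 ± 0.20), Igtp (2.94 ± 0.11), Irgm1 (1.40 ± 0.09), Irgm2 (1.99 ± 0.13), Tgtp2 (2.63 ± 0.16), Psme2 (1.47 ± 0.06), Stat2 (1.47 ± 0.13), the glycolytic enzyme gene Aldoa (0.85 ± 0.05) and the filament gene Prph (1.28 ± 0.13). Of these, Aldoa and Prph are not interferon genes, and Prph was not called with all 18 libraries in 1 fit. The pattern was looked for only among genes named in the text and called in both fits, many of them interferon genes. How many of all genes tested show it was not counted, so the make-up of the 11 follows this choice. Aldoa was at 10961, 11652 and 11036 in Pfp/Rag2-/- cells, 11826, 11948 and 12936 in culture and 19924, 20736 and 19952 in WT GFP+ cells.

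Among the genes that changed most against culture, the rise was larger in WT for Apol6 (8.04 ± 0.27), H2-Eb2 (7.47 ± 0.72), Ubd (6.46 ± 0.36), Il12rb1 (5.63 ± 0.19), Apol10b (5.36 ± 0.25), Ciita (5.11 ± 0.49), H2-Eb1 (4.55 ± 1.19), H2-Aa (4.15 ± 1.17), Cd74 (4.06 ± 1.04) and C7 (3.08 ± 0.15). Apol6 was at 4.57, 1.84 and 3.68 in Pfp/Rag2-/- libraries, near culture. The rise was smaller in WT for Gpr17 (-1.38 ± 0.38), Myo7b (-1.04 ± 0.18) and Brinp3 (-0.74 ± 0.21). The oligodendrocyte share of the GFP- level, beside Gpr17, was 44.6%, 30.1% and 25.4% in Pfp/Rag2-/- libraries and 6.40%, 3.65% and 26.5% in WT, and its part was not tested. Myo7b, Gpr17, Brinp3 and Tgfb2 were not called with all 18 libraries in 1 fit, and Gpr17, Brinp3, Cd74, H2-Aa and H2-Eb1 were not with robust variances. The fall was larger in WT for Col6a2 (-3.02 ± 0.12) and Tgfb2 (-0.95 ± 0.22), which stood at 1075, 828 and 855 and 94.1, 62.5 and 82.9 in Pfp/Rag2-/- libraries.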

How the results depend on the processing

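The 4324 higher and 5037 lower calls against culture ranged over 3353 to 3889 and 4201 to 5280 when 1 library was left out, and over 3767 to 4453 and 4330 to 5270 when the genes tested were also kept, an alternative chosen after seeing the data. Of 243 named genes called, 227 kept direction and call under all 10 processing alternatives, 237 with any 1 library left out and 221 with the immune share subtracted, and none turned direction under these. With all 18 libraries in 1 fit calls were lost for Clu, Fn1, Itgb4, Mxi1, Nkx2-2, Oas3, Olig1, Olig2, Pdgfra, Pfkm, Pfkp, Pou3f2, Pou3f3 and Prph. They were also lost for Pdia3, Pfkp and Pfkm under other scalings, for Oas3 with no filter and for Cxcl10 with robust variances. Calls were lost without 1 library for Cxcl10, Itgb4, Oas3, Oasl1, Pdia3 and Pfkp. Leaving out a WT GFP+ library also removes genes that pass the filter through that group alone. With the block for the library number 4198 and 4909 genes were called against culture and 2356 and 2232 between hosts. Outside the interferon-gamma list no named gene or list changed its call with this block.

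Between hosts the 2269 higher and 2228 lower calls ranged over 1336 to 2650 and 1071 to 2870 with 1 library left out. With the genes tested also kept they ranged over 1380 to 2689 and 1137 to 2843. With 1 library left out, both counts fell by over 1.5 times without WT library 1 (1472 and 1440.0) or WT library 2 (1336 and 1355). They also did without Pfp/Rag2-/- library 2 (1378 and 1071) or Pfp/Rag2-/- library 3 (1420.0 and 1177). With all 18 libraries in 1 fit 1483 were lower. The host differences of Brinp3, Gpr17, Tgfb2, Cd74, H2-Aa and H2-Eb1 lost their call without single libraries.

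Subtracting the largest of the 4 host-cell shares moved the most values. It takes 30.95% of the GFP- level from library 3, and genes higher in GFP- cells go to or near 0 there, and 69.5%, 30.1% and 27.2% from Pfp/Rag2-/- libraries 1, 2 and 3. The median of all genes moved to -0.42 against culture and 0.56 between hosts. It left 1358 higher calls against culture, and 220.0 higher and 146 lower between hosts. The log2 differences against culture that turned were Arg1 (-0.64), Atf3 (-0.68), B2m (-4.12), Bhlhe41 (-3.39), C1qa (-0.32), C3 (-2.10), Col4a1 (-3.89), Col4a2 (-2.29), Ctss (-0.32), Cxcl9 (-2.59), H2-Ab1 (-4.60), H2-D1 (-2.84), H2-K1 (-2.39), H2-Q6 (-0.32), Ifit2 (-0.63), Ifngr1 (-6.63), Itga9 (-3.66), Mcm6 (-0.11), Mmp13 (-0.32), Mx1 (-7.43), Nfkbia (-1.44), Oas2 (-5.84), Oas3 (-0.40), Oasl1 (-6.80), Parp14 (-2.86), Per1 (-2.27), Per2 (-0.87), Ptprc (-0.96), Smad7 (-1.71), Socs3 (-1.58), Tnfaip3 (-2.76), Tnfrsf14 (-0.30), Vegfa (-2.02) and Xaf1 (-0.0867), and between hosts those of Gfra2 (0.55), Ifit3 (1.63) and Isg15 (4.00). Under the immune share Ifngr1 (-0.0417) and Mx1 (-0.47), which were not called, turned, and under quantile scaling Sox2 (0.0944). Without single libraries the uncalled values ran from -0.00854 to 0.31 for Mx1 and, between hosts, from -0.14 to 0.0379 for Ifit3 and -0.0415 to 0.28 for Ntn1. The cause was not tested. Genes under the filter of 10 were not tested at this depth.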

Other observations

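Klrk1, the gene of the activating receptor NKG2D of NK and T cells, was present in each WT GFP+ library at 303, 203 and 238, with no read in culture (at least 87.2-fold higher). It was at 11.6%, 7.805% and 9.12% of its GFP- mean. Gzma, a granule protease of the same cells, was at 704, 22.8 and 69.1, at 5.43%, 0.176% and 0.533% of its GFP- mean. In Pfp/Rag2-/- GFP+ libraries Klrk1 was at 331, 5.51 and 2.76 and Gzma at 1018, 11.9 and 11.97, both high in library 1 alone. Tmem119, a marker of microglia in brain, was at 4224, 3063 and 7288 in WT GFP+ cells against 102, 108 and 97.3 in culture (47.4-fold), and its GFP- mean was 3800.4, within the range of the WT GFP+ libraries. It was the macrophage and microglia marker with the highest percentage of its GFP- level, 128%, where the median marker stood at or below 2.61%.

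Of 17 clock genes tested 8 were called higher and 5 lower, where 30.3% and 35.3% of all genes were. No test of the list was run. The repressor genes Per1 and Per2 rose 3.15- and 3.29-fold and Bhlhe41 4.57-fold, while the activator genes Arntl and Clock fell 1.52- and 1.27-fold. Npas2, which can take the place of Clock, rose 3.34-fold, from 10.4, 12.2 and 16.2 to 40.2, 38.95 and 50.6, above its GFP- mean of 16.3. The time of day of any sample is not given in the labels.

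Among 19 tested heat shock genes and chaperones 5 rose and 8 fell, where 30.3% and 35.3% of all genes did. Cryab, a small heat shock protein of glia, fell 4.26-fold, from 7434, 7101 and 7104 to 1762, 1911 and 1402, and was lower still in Pfp/Rag2-/- cells at 451, 501 and 518. Hspa1a, the inducible Hsp70, was at 249, 52.3 and 61.7 with no read in culture, at 3.03%, 0.635% and 0.75% of its GFP- mean, with library 1 the highest.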
